A study of Mus musculus with 12 samples.

Results

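The genes described here are Myc, Mycn and Mycl, their partner Max, and the Max partners Mxi1, Mxd4 and Mga. They are 7 of the 54446 genes in the RNA-seq tables, chosen by symbol and not by a rule on measured values. Earlier results of these data were known when they were chosen. Levels were read from 1 RNA-seq library of mouse embryonic stem cells (mESCs) and 1 of NIH3T3 cells. Peaks were read from 7 ChIP-seq lists, which cover Ctr9 and H3K27ac in both cell types and NELFA, RNAPII Ser5p and RNAPII Ser2p in mESCs alone. Replicates were absent for each cell type and assay, so the design allows no test between cell types, and each difference below compares 1 library with 1 library.

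The mESCs were of the E14 line and the NIH3T3 cells are an established mouse fibroblast line, and both were kept in the same GMEM medium with serum and LIF, with no other treatment. For Ctr9, both lines carried GFP fused to the C terminus of the endogenous protein, as pools of sorted GFP-positive cells and not single clones. NELFA was read with the same GFP antibody in mESCs that express a GFP-tagged NELFA, and RNAPII Ser5p was read in those NELFA-tagged cells. Whether the RNA-seq cells carried a tag is not given in the sources used here. Ctr9 is a core subunit of the Paf1 complex, which travels with elongating RNA polymerase II. NELFA is a subunit of the negative elongation factor, which holds the polymerase soon after the start of a gene. H3K27ac marks active promoters and enhancers, and RNAPII Ser5p and Ser2p are phosphorylated forms of the polymerase that prevail early and late in a gene.

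MYC proteins are basic helix-loop-helix leucine zipper factors that bind DNA only as a pair with MAX, mostly at the E-box CACGTG. MXI1 and MXD4 compete for MAX and recruit SIN3 and histone deacetylases to the same sites. MGA is a very large MAX partner that also carries a T-box and belongs to the noncanonical Polycomb complex PRC1.6. In embryonic stem cells MYC and MYCN are known for supporting self-renewal, while MGA and MAX hold germ-cell genes silent.

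Markers matched the labels. All 9 pluripotency markers were over 2-fold higher in mESCs, with Pou5f1 at 1402 TPM in mESCs and 0 in NIH3T3 cells. TPM is the length-corrected share of a transcript among all transcripts of its library, on a fixed total. All 9 fibroblast markers were over 2-fold higher in NIH3T3 cells, and Col1a2 was at 0.132 TPM in mESCs and 1082 TPM in NIH3T3 cells. Primitive endoderm markers summed to 9.24 TPM in mESCs and 28.5 TPM in NIH3T3 cells over 5 genes, and none of the 5 was listed at 0 in mESCs. They went both ways, with 1 over 2-fold higher in mESCs (Sox7) and 2 in NIH3T3 cells (Dab2 and Gata6). Sox7 gave 6.04 TPM of the mESC sum, and Dab2 gave 24.2 TPM of the NIH3T3 sum. The 4 primed or mesodermal markers summed to 7.98 TPM in mESCs, of which Otx2 gave 7.30. The part of these other cell states in the values below was not tested.

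In the RefSeq table of promoters (build GRCm38.p6, from 250 bases before to 50 after each start), 6 of the 7 genes, all but Myc, had an entry, with 8 promoters between them. The E-box CACGTG, which reads the same on both strands, was found in 2349 of the 32851 promoters (7.15%) and in 2 of these 8. It was present in Max, where its first base lay 3 bases before the RefSeq start, and in Mxd4, where it lay 219 bases before the start. Both are shown 5′ to 3′ with the E-box in capitals, Max at chr12:76962199-76962498 on the minus strand and Mxd4 at chr5:34187661-34187960 on the minus strand.
Max promoter: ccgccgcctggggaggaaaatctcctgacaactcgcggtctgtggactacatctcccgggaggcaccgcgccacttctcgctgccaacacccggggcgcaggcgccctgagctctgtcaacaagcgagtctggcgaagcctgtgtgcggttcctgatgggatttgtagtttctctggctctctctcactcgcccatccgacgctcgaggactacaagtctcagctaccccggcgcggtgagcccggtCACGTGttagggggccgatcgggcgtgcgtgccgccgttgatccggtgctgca
Mxd4 promoter: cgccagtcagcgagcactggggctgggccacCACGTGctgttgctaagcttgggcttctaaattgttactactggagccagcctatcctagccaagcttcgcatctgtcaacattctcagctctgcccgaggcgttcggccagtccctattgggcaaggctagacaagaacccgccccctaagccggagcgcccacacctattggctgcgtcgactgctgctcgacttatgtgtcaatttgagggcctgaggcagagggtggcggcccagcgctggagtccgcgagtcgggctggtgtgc

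Mxi1 has starts that lie far apart, and its upstream and downstream promoters are shown because the shares of their transcripts differed between the libraries. They lie on the plus strand at chr19:53310256-53310555 and chr19:53329163-53329462 (GRCm38.p6), and capitals mark CG dinucleotides. The upstream promoter holds 17 and the downstream one 21, against a median of 7 over all promoters in the table. These numbers are higher than in 68.6% and 75.2% of promoters. A further RefSeq start at chr19:53329445-53329744 holds 49, more than 99.0% of promoters.
Mxi1 upstream promoter: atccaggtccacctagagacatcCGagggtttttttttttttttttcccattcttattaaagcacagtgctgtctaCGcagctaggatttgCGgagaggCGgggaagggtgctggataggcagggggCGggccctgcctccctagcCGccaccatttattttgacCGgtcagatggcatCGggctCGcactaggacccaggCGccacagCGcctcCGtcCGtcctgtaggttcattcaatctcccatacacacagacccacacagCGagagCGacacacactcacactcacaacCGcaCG
Mxi1 downstream promoter: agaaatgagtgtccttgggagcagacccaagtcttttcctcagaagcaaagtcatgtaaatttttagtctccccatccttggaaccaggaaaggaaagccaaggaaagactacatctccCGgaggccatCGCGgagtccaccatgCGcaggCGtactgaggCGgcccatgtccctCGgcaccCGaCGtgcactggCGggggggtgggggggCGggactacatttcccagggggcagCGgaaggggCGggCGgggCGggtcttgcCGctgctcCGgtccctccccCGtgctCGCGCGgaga

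At Mycn, the H3K27ac peaks of both cell types shared 220 bases upstream of the gene start, and this stretch is shown because Mycn RNA differed most between the cell types. It was read from the genome (GRCm38.p6, the sequence of mm10) at chr12:12942218-12942437 on the minus strand, 304 to 523 bases before the start, outside any exon of Mycn. Capitals mark its 11 CG dinucleotides, and it holds no CACGTG.
Mycn shared H3K27ac stretch: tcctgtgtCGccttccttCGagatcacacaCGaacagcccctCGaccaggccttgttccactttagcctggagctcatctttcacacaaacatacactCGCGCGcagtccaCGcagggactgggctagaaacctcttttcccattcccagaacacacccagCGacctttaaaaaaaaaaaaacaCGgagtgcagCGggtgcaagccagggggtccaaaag

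Max makes 2 main protein-coding transcripts that differ by a short exon near the start of the coding sequence. The 27-base exon at chr12:76961263-76961289 (minus strand), 9 codons long, is present in Max-202 and absent from Max-201. It is shown in capitals with 24 bases of transcript on each side.
Max-202: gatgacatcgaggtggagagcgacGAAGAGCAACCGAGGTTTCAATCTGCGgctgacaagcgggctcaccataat
Max-201: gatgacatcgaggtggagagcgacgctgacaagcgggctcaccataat

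Mycn was higher in mESCs and Myc in NIH3T3 cells. Gene levels are given as the TPM of the transcript with the highest value, and as the sum over all transcripts where this changes the reading. Folds are ratios of TPM + 1, on which 23.8% of the 12379 protein-coding genes with a TPM of at least 1 in either library were over 2-fold higher in mESCs and 20.0% over 2-fold higher in NIH3T3 cells. On this scale 3 of the 7 genes (Mycn, Mga and Mycl) were over 2-fold higher in mESCs and 1 (Mxd4) was over 2-fold higher in NIH3T3 cells. With 7 genes these counts are not told apart from the shares of all genes. In such bulk samples, fewer cells of a type and less RNA per cell cannot be told apart.

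Mycn, the MYC gene best known from early embryonic and neural cells, was at 18.0 TPM in mESCs and 0.715 TPM in NIH3T3 cells, a log2 difference of 3.47 on the TPM + 1 scale. Summed over transcripts it stood at 35.2 TPM against 0.869 TPM. By estimated counts, 1837 against 44, its share of the library was 45.6 times higher in mESCs (95% exact conditional binomial interval, 33.8 to 63.0, counting error only). The difference exceeded those of 96.7% of the tested genes. Of the 7 genes Mycn had the widest gap between the cell types on each scale of level used here.

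Myc itself, the broadly expressed member, was higher in NIH3T3 cells. Its highest transcript was at 12.5 TPM in mESCs and 25.4 TPM in NIH3T3 cells, and its sum over transcripts was 46.6 and 88.4 TPM. The log2 difference was -0.97, just short of 2-fold, and 20.6% of tested genes lay lower. Its share of estimated counts was 1.93 times higher in NIH3T3 cells (1.83 to 2.05). With a pseudocount of 0.1, with NIH3T3 levels rescaled, or with transcripts of identical exons added, Myc passed 2-fold, at log2 differences of -1.02, -1.05 and -1.03.

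The order of Myc and Mycn in mESCs depended on how transcripts were added. By the highest transcript Mycn stood above Myc, while by the sum Myc (46.6 TPM) stood above Mycn (35.2 TPM). Myc-201 and Myc-205 have the same exons, and the deposited table splits their reads evenly, 12.2 TPM each in mESCs and 25.4 TPM each in NIH3T3 cells. Added together they gave 24.4 TPM in mESCs and 50.8 TPM in NIH3T3 cells, and Myc then also stood above Mycn in mESCs. In NIH3T3 cells Myc was the highest of the 7 genes by each of these measures.

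Mycl, the third MYC gene, was low in both cell types. It was at 2.14 TPM in mESCs and 0.525 TPM in NIH3T3 cells, a log2 difference of 1.04, with 189 and 46 estimated counts over all transcripts. By the sum over transcripts the log2 difference was 0.93, under 2-fold. At levels this low the pseudocount of 1 shrinks the difference, and with 0.1 the log2 difference of the highest transcript was 1.84. Its share of estimated counts was 4.49 times higher in mESCs (3.24 to 6.34, counting error only). Summed over Myc, Mycn and Mycl, the MYC genes gave 84.6 TPM in mESCs and 90.3 TPM in NIH3T3 cells. Myc made up 55.0% of that sum in mESCs, Mycn 41.6% and Mycl 3.36%. In NIH3T3 cells Myc made up 97.9%. The totals were closer to each other than the levels of Myc or Mycn were.

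Max, the partner that every MYC and MXD protein needs, was at 41.0 TPM in mESCs and 24.3 TPM in NIH3T3 cells, a log2 difference of 0.73. Its share of estimated counts was 1.84 times higher in mESCs (1.72 to 1.97), again counting error only. It was higher than 89.3% of protein-coding genes in mESCs and 83.8% in NIH3T3 cells. Max was the second highest of the 7 genes in both.

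Mga was at 44.3 TPM in mESCs and 11.5 TPM in NIH3T3 cells, a log2 difference of 1.86, larger than in 89.4% of tested genes. Its estimated counts were 11497 and 3122, a share 4.02 times higher in mESCs (3.87 to 4.19). By both measures of level Mga was the highest of the 7 genes in mESCs.

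Mxd4 was over 2-fold lower in mESCs, while Mxi1, the other MXD repressor of the 7 genes, was under 2-fold different. Mxd4 was at 3.11 TPM in mESCs and 11.3 TPM in NIH3T3 cells, a log2 difference of -1.58 below which 12.0% of tested genes lay, and its share of estimated counts was 3.51 times higher in NIH3T3 cells (3.10 to 3.98). Mxi1 was at 3.49 and 4.59 TPM, a log2 difference of -0.32, and its share of counts was 1.39 times higher in NIH3T3 cells (1.27 to 1.53). Summed over transcripts, both repressors together gave 12.8 TPM in mESCs and 25.9 TPM in NIH3T3 cells. Gm42846, annotated antisense to the end of Mxd4 over 1001 bases, was listed at 0 in both libraries.

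By the sum over transcripts the order of levels in mESCs was Mga, Max, Myc, Mycn, Mxi1, Mxd4 and Mycl, from 79.1 down to 2.84 TPM. In NIH3T3 cells it was Myc, Max, Mga, Mxd4, Mxi1, Mycl and Mycn, from 88.4 down to 0.869 TPM. By the highest transcript, Mycn stood above Myc in mESCs and above Mycl in NIH3T3 cells, and the order was otherwise the same. The spread between replicates is unknown, so no pair of neighbours in either order can be told apart beyond it.

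**Figure D1:**
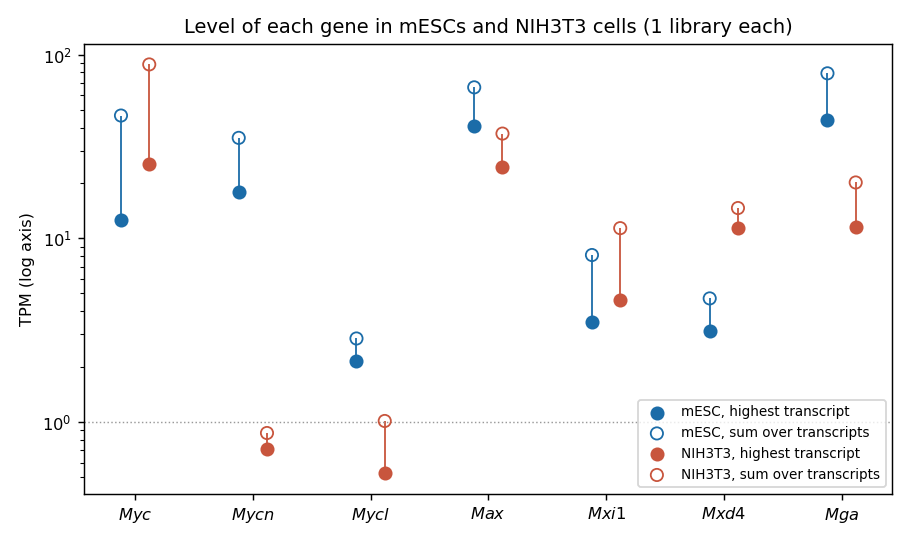
Level of each gene in TPM on a log axis in mESCs (blue) and NIH3T3 cells (red), 1 library each, as the highest transcript (filled circles) and the sum over transcripts (open circles), with a dotted line at 1 TPM. Mycn stands at 18.0 TPM in mESCs and 0.715 TPM in NIH3T3 cells by the highest transcript, and Myc is the highest point of NIH3T3 cells.

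The RNA-seq tables list 45 transcripts of the 7 genes. Max-201 held 61.8% of the Max TPM in mESCs and 65.5% in NIH3T3 cells, and Max-202, with the 27-base exon in capitals above, held 28.9% and 23.4%. Both were lower in NIH3T3 cells, Max-201 at 24.3 against 41.0 TPM (log2 difference 0.73) and Max-202 at 8.69 against 19.2 TPM (1.06, over 2-fold). Whether their balance differs between the cell types cannot be tested with 1 library each.

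Mxi1-201, which begins at the upstream promoter, was at 1.19 TPM in mESCs and 3.52 TPM in NIH3T3 cells, and its share of the gene went from 14.7% to 31.0%. Mxi1-202 and Mxi1-203, which begin 18940 and 18895 bases further along at the downstream promoters, were at 3.42 and 3.49 TPM in mESCs and 3.24 and 4.59 TPM in NIH3T3 cells. The higher summed Mxi1 level of NIH3T3 cells lay in the upstream transcript and in Mxi1-203, with Mxi1-202 at about the same TPM in both. By estimated counts, 118 and 375, the share of Mxi1-201 was 15.4% and 32.3%. Whether this balance differs between the cell types cannot be tested with 1 library each, and promoter activity was not measured.

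Mycn-201 and Mycn-202 shared the Mycn signal of mESCs at 51.0% and 47.6%, at 18.0 and 16.7 TPM. Mycn-202 is annotated from 1298 bases inside the gene. In NIH3T3 cells Mycn-202 was listed at 0 and Mycn-201 held 82.3%, but this rests on 44 estimated counts in all. Mycn-203, a processed transcript, held 17.7% there from 2 counts, which are 4.55% of the counts.

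Myc-201 and Myc-205 held 26.2% each in mESCs and 28.8% each in NIH3T3 cells, Myc-202, which begins 173 bases further along, 26.9% and 23.5%, and Myc-204 16.3% and 18.6%. Each of these 4 was higher in NIH3T3 cells, by ratios of TPM between 1.66 and 2.17.

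Among the remaining genes, Mga-201, a protein-coding transcript, held 56.0% of the Mga TPM in mESCs and 57.1% in NIH3T3 cells, and 85.6% and 88.6% of the estimated counts. The short processed transcripts Mga-212 and Mga-208 held 16.9% and 12.4% in mESCs, but only 1.21% and 1.03% of the estimated counts, since TPM divides by length. Mxd4-201 held 66.2% in mESCs and 77.5% in NIH3T3 cells, and the shorter Mxd4-202 held 30.3% and 15.5%. By estimated counts Mxd4-201 held 84.8% and 86.4%, and Mxd4-202 only 9.83% and 4.37%. For Mycl, Mycl-202 held 75.3% and 51.9%, Mycl-201 15.1% and 0%, and Mycl-203 0% and 48.1%, the last from 5.77 estimated counts in NIH3T3 cells. By those counts Mycl-202 held 80.9% and 87.5%, and Mycl-203 held 12.5% in NIH3T3 cells.

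**Figure D2:**
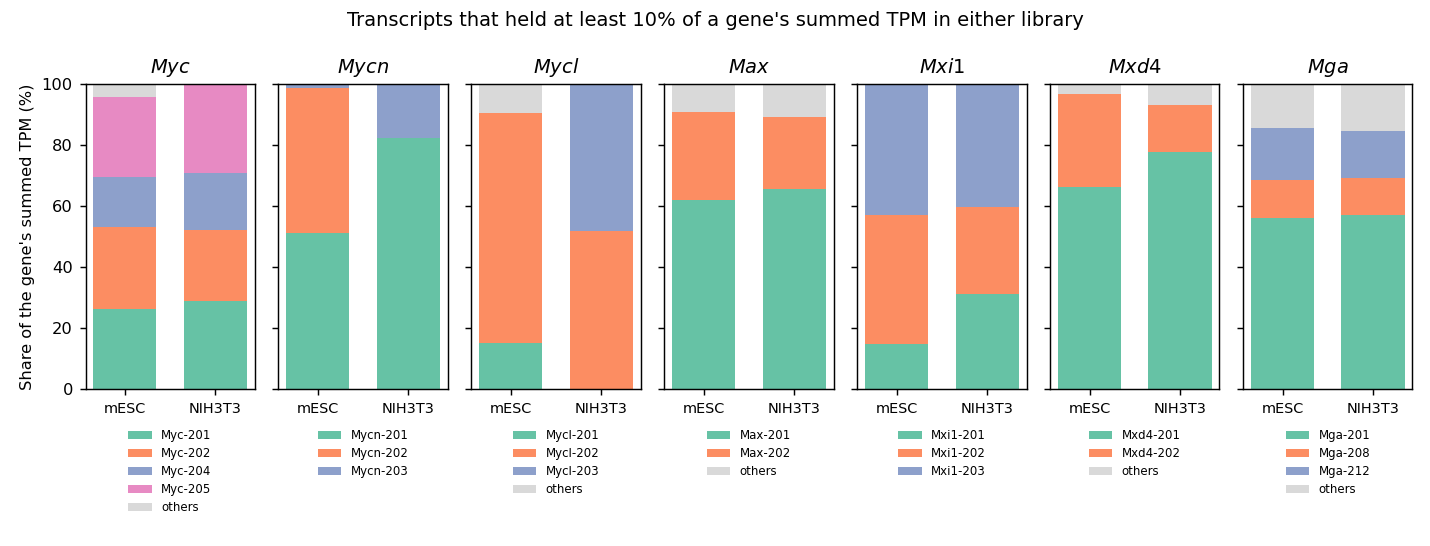
Share of each gene's summed TPM (percent, from 0 to 100) held by its transcripts in mESCs and NIH3T3 cells, 1 library each. Coloured segments are transcripts with at least 10% in either library and grey is the rest. Mxi1-201 goes from 14.7% to 31.0%, and Mga-201 from 56.0% to 57.1%.

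Peaks were counted at a gene when they overlapped its body or 5 kb on either side by at least 1 base. The 7 lists held 110 peaks at these genes, 70 in mESCs and 40 in NIH3T3 cells. A fold enrichment is the height of the peak over its local background, and since the lists differ in scale (the median H3K27ac peak was 3.97-fold in mESCs and 6.75-fold in NIH3T3 cells), strength is also given as the percentage of peaks of the same list that lay lower. The number of ChIP-seq reads is not in the lists, so depth is unknown.

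Ctr9 peaks lay at 5 of the 7 genes in mESCs (Myc, Mycn, Max, Mxi1 and Mga) and at 4 in NIH3T3 cells (Myc, Mxi1, Mxd4 and Mga). Of all 21905 protein-coding genes, 45.6% had such a peak in mESCs and 26.9% in NIH3T3 cells, and of those with a TPM of at least 1 in that cell type 74.7% and 46.2%. H3K27ac peaks lay at 5 genes in mESCs, all but Myc and Mycl, beside 44.5% of all genes and 74.3% of expressed ones. In NIH3T3 cells they lay at 6, all but Mycl, beside 56.0% and 93.6%.

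Each of the 3 remaining lists of mESCs had peaks at 1 gene, and each time another. NELFA was found at Myc (10.8% of all genes had a NELFA peak), RNAPII Ser5p at Mycn (13.4%) and RNAPII Ser2p at Mga (7.52%). Of expressed genes, 19.3%, 23.6% and 12.9% had such peaks. With 7 genes, 1 gene per list is not told apart from these shares. How often genes share these lists was not computed. These lists are short, with 1980, 4490 and 1675 peaks against 44748 for Ctr9 in mESCs, so a gene without a peak in them may still carry the protein below the calling threshold. Mycl had no peak in any list. Its nearest H3K27ac peaks lay 14.1 kb away in mESCs and 13.7 kb away in NIH3T3 cells, and its nearest Ctr9 peaks 36.8 kb and 54.6 kb away.

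**Figure D3:**
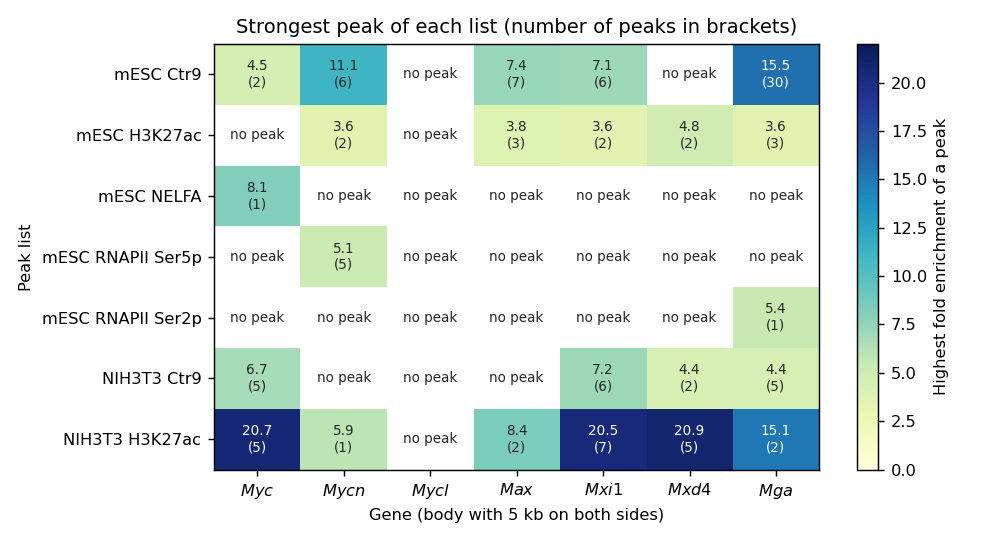
Highest fold enrichment of a peak (colour scale) for each gene (columns, body with 5 kb on both sides) in each of the 7 peak lists (rows), with the number of peaks in brackets. Mycl has no peak in any row, and NELFA, RNAPII Ser5p and RNAPII Ser2p each appear at a different gene.

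At Mycn (chr12:12936093-12941914, minus strand), Ctr9 was found only in mESCs, with 6 peaks against none in NIH3T3 cells, where the nearest lay 1615 kb away. The strongest, at chr12:12934333-12935964, had a summit 798 bases past the gene end and an 11.1-fold enrichment, higher than 98.0% of Ctr9 peaks in mESCs. The other 5 lay in the gene, 2 in exons and 3 in introns, at 2.50- to 4.38-fold.

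RNAPII Ser5p had 5 peaks at Mycn in mESCs. They ran from 607 bases before the start through summits 249, 2095 and 3731 bases into the gene to 994 bases past its end, at 3.47- to 5.09-fold. The last overlapped the strongest Ctr9 peak. H3K27ac stood before the start, with mESC summits 405 and 873 bases upstream at 3.59- and 3.14-fold. NELFA and RNAPII Ser2p had no peak at Mycn, and the nearest lay 4014 kb and 3906 kb away.

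In NIH3T3 cells, in which Mycn RNA was at 0.715 TPM, a single H3K27ac peak of 258 bases remained at Mycn. Its summit lay 415 bases upstream, 10 bases from that of mESCs, at 5.87-fold, higher than 41.1% of its list. The 220 bases printed above are 86.6% of the mESC peak and 85.3% of the NIH3T3 peak. Among the strongest 19417 H3K27ac peaks of NIH3T3 cells, the number in the mESC list, this peak was not included.

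At Myc (chr15:61985391-61990374, plus strand), the picture was the reverse. NIH3T3 cells had 5 Ctr9 peaks covering 4336 bases. Their summits lay 391 bases before the start, 1710 and 2419 bases into the gene in exons, 3804 bases in, in an intron, and 680 bases past the end. The strongest, at chr15:61987446-61988012, was 6.71-fold, higher than 93.1% of its list.

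In mESCs only 2 Ctr9 peaks lay at Myc, both past its end. Their summits were 380 and 820 bases beyond it, at 4.52- and 2.40-fold, and both overlapped the NIH3T3 peak there. H3K27ac had 5 peaks at Myc in NIH3T3 cells, the strongest 20.7-fold over 3661 bases with its summit 397 bases into the gene, and none in mESCs, where the nearest lay 54.5 kb away. Myc RNA was nevertheless present in mESCs, at 46.6 TPM summed over transcripts.

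Myc was the gene of the 7 with a NELFA peak. It lay at chr15:61985413-61985722, was 310 bases wide and 8.10-fold, higher than 89.0% of NELFA peaks, and its summit lay in an exon 161 bases from the annotated gene start. From the start of Myc-202, the highest transcript of mESCs, the summit was 12 bases upstream. No RNAPII Ser5p peak was called at Myc, and the nearest lay 3850 kb away.

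**Figure D4:**
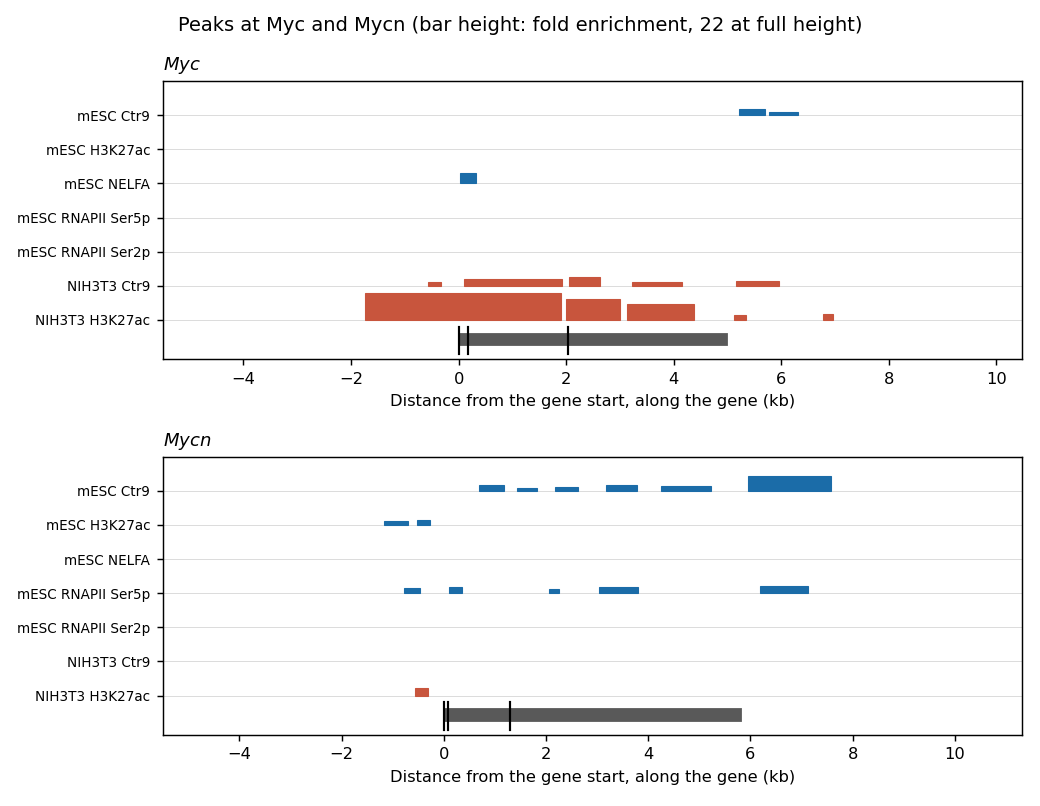
Peaks at Myc and Mycn against distance from the gene start in kb, read along the gene, with 1 row per peak list (mESCs blue, NIH3T3 cells red). Bar height is fold enrichment, the grey bar the gene and black ticks the starts of its main transcripts. Ctr9 covers Myc in NIH3T3 cells and Mycn in mESCs, and the mESC Ctr9 peaks at Myc lie past its end.

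Max (chr12:76937269-76962201, minus strand) carried 7 Ctr9 peaks in mESCs. In NIH3T3 cells it had no Ctr9 peak and the nearest lay 342 kb away, beside a Max level of 24.3 TPM. In mESCs the strongest spanned 2688 bases with its summit 881 bases past the end, at 7.37-fold, higher than 94.6% of the list. A further 2 lay past the end and 4 in introns, at 2.46- to 4.29-fold, and none lay within 1 kb of the start.

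H3K27ac had 3 peaks at Max in mESCs and 2 in NIH3T3 cells, and those within 1 kb of the start overlapped between the cell types. The summits nearest the start lay 346 bases into the gene in mESCs and 331 bases in NIH3T3 cells, at 3.18- and 8.38-fold, higher than 24.6% and 61.3% of their lists. A weaker pair lay 639 and 605 bases upstream. The third mESC peak, at chr12:76965379-76965671 with its summit 3315 bases upstream, was the strongest of the 3 at 3.81-fold, higher than 45.3% of its list, and overlapped no NIH3T3 peak. Both pairs are within 1 kb of the E-box shown in capitals above.

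Mga (chr2:119897228-119969581, plus strand) carried 30 Ctr9 peaks in mESCs and 5 in NIH3T3 cells. At 72.4 kb it is the longest of the 7 genes, and per 10 kb of window the mESC peaks came to 3.64, close to the 3.79 of the much shorter Mycn. In mESCs 15 summits lay in introns and 10 in exons, and the median enrichment was 3.89-fold. Among the strongest 22016 Ctr9 peaks of mESCs, the number in the NIH3T3 list, 16 of the 30 remained. By the same cut 3 of 7 mESC peaks remained at Max, 4 of 6 at Mycn, 4 of 6 at Mxi1 and 1 of 2 at Myc.

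The strongest Ctr9 peak at any of the 7 genes lay past the end of Mga in mESCs. It spanned 3044 bases at chr2:119968954-119971997, with its summit 1258 bases beyond the gene, at 15.5-fold, higher than 99.2% of the list. The only RNAPII Ser2p peak at these genes lay inside it, with its summit 1241 bases past the end at 5.39-fold. The next protein-coding gene, Mapkbp1, begins 3118 bases past the end of Mga on the same strand and was at 2.35 TPM in mESCs.

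The start of Mga carried both marks in both cell types. H3K27ac summits lay 462 bases into the gene in mESCs and 429 bases in NIH3T3 cells, at 3.56- and 15.1-fold, and Ctr9 summits 246 and 428 bases in, at 4.87- and 2.61-fold. All 5 Ctr9 peaks of NIH3T3 cells at Mga overlapped one of mESCs. The last of them, with its summit 3054 bases past the end, also overlapped Mapkbp1, which was at 4.75 TPM in NIH3T3 cells. H3K27ac peaks also lay by the start of Mapkbp1, with summits 3035 (mESCs) and 3011 (NIH3T3 cells) bases past the end of Mga. They were 3.50- and 13.6-fold.

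Mxi1 (chr19:53310518-53375810, plus strand) had 6 Ctr9 peaks in each cell type, at different places. In mESCs all 6 lay at the 3′ end, with summits from 62986 bases into the gene to 2945 bases past its end, the strongest 857 bases past the end at 7.08-fold. In NIH3T3 cells 3 of the 6 lay near the upstream start, 2238, 3160 and 4006 bases into the gene, the strongest at 7.20-fold, higher than 94.8% of its list. The other 3 lay 57, 2788 and 4712 bases past the end, and the last 2 also overlapped Smndc1, the convergent neighbouring gene. Smndc1 was at 75.4 TPM in mESCs and 67.8 TPM in NIH3T3 cells, and its end lies 3580 bases past that of Mxi1. The mESC summits past the end of Mxi1 thus lie between both gene ends, and which gene they belong to was not tested.

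The strongest H3K27ac peak of NIH3T3 cells at Mxi1, 3083 bases into the gene, was 20.5-fold and higher than 90.9% of its list. The mESC peak at that place, with its summit 3139 bases in, was 3.37-fold and higher than 31.2%. Near the downstream start the summits lay 359 bases past the start of Mxi1-203 in mESCs and 425 bases in NIH3T3 cells, at 3.61- and 5.87-fold, higher than 39.0% and 41.1%. NIH3T3 cells had further intronic H3K27ac peaks, among them one 15094 bases into the gene at 15.1-fold.

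Mxd4 (chr5:34173883-34187720, minus strand) was the only one of the 7 with Ctr9 in NIH3T3 cells alone. Its 2 Ctr9 peaks lay 928 and 1883 bases into the gene, at 4.37- and 4.38-fold, near the middle of the list (52.8% and 53.6% lower), and in mESCs the nearest lay 21.3 kb away. H3K27ac stood at the Mxd4 start only in NIH3T3 cells, with summits 480 bases before and 191 and 757 bases after it, at 7.34- to 9.89-fold.

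The remaining H3K27ac peaks in the Mxd4 window, 2 in each cell type, had summits 3945 to 4607 bases past its end, by the starts of Haus3, a mitotic spindle gene, and Poln. They include the strongest, at 20.9-fold in NIH3T3 cells, which overlapped both of these genes. Haus3 was at 40.3 TPM in mESCs and 30.6 TPM in NIH3T3 cells. Counting the gene body alone, Mxd4 had no H3K27ac peak in mESCs.

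**Figure D5:**
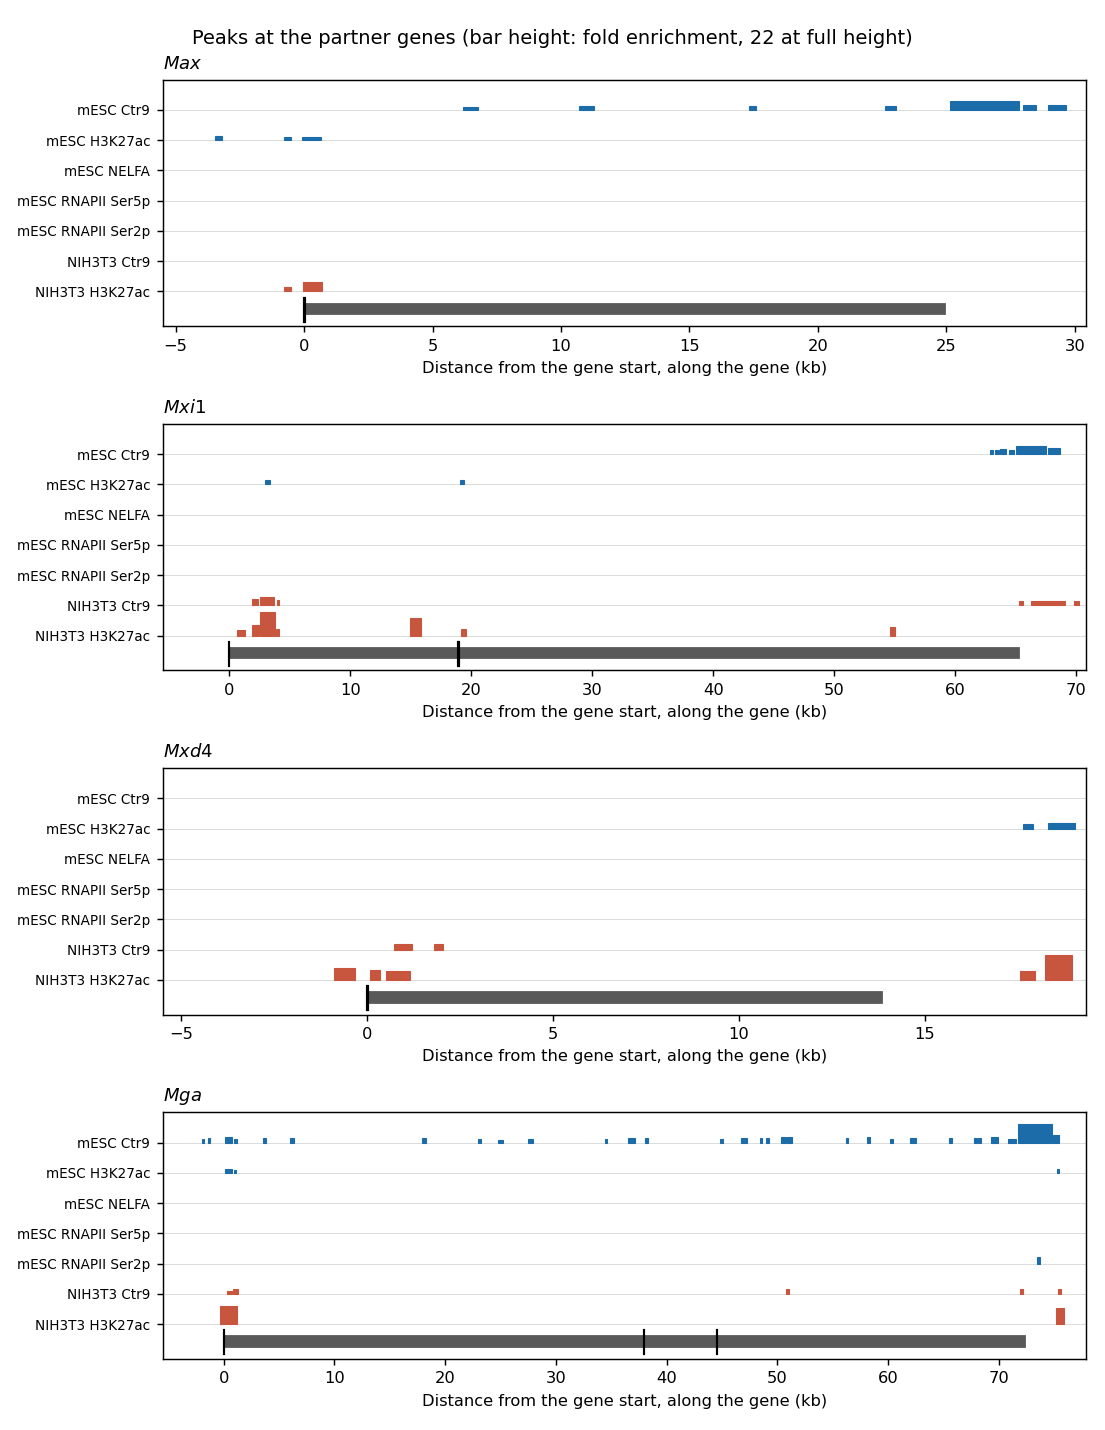
Peaks at Max, Mxi1, Mxd4 and Mga against distance from the gene start in kb, read along the gene, with 1 row per peak list (mESCs blue, NIH3T3 cells red). Bar height is fold enrichment, the grey bar the gene and black ticks the starts of its main transcripts. The tallest Ctr9 bar is the 15.5-fold mESC peak past the end of Mga, and Ctr9 stands near the upstream Mxi1 start in NIH3T3 cells only.

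Over the 7 genes, 9 of 51 Ctr9 peaks of mESCs (8 of 18 of NIH3T3 cells) overlapped a Ctr9 peak of the other cell type. For H3K27ac it was 10 of 12 (9 of 22). Mga alone held 30 of the 51 Ctr9 peaks of mESCs. The same shares over all peaks were not computed and the lists differ in length, so these overlaps say nothing particular about the 7 genes. In mESCs the strongest Ctr9 peak had its summit past the gene end at Myc, Mycn, Max, Mxi1 and Mga, all 5 genes that had one, as did 55.0% of the 9984 protein-coding genes with a Ctr9 peak. In NIH3T3 cells the strongest lay inside the gene at Myc, Mxi1, Mxd4 and Mga, all 4 that had one, and 40.1% of the 5885 genes with a peak had it past the end. At Mga that peak, at chr2:119969095-119969380, lay within 1 kb of the gene end and overlapped the strongest mESC peak. With so few genes no more can be read from these counts.

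In the rest of the MAX and MLX network, none of the 6 genes was over 2-fold different, 5 of them with a TPM of at least 1, and their median log2 difference was 0.17 against 0.13 over all tested genes. Mnt, the broadly expressed repressor partner of MAX, was at 25.2 TPM in mESCs and 15.6 TPM in NIH3T3 cells. Mxd1 was at 3.98 and 2.41 TPM, and Mxd3, linked to proliferating cells, at 8.89 and 7.79 TPM. Mlx, the partner of the glucose-sensing branch, was at 12.9 and 13.6 TPM, and its partner Mlxip at 5.64 and 11.1 TPM, which passed 2-fold when transcripts were summed (log2 difference -1.10). Mlxipl was at 0.329 TPM and listed at 0. Ctr9 peaks lay at 4 of these 6 in each cell type, where 74.7% and 46.2% of expressed genes had one, the strongest in mESCs at Mxd3 (16.9-fold) and in NIH3T3 cells at Mnt (12.8-fold).

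Among the partners of MGA in PRC1.6, of 10 genes, 5 were over 2-fold higher in mESCs (L3mbtl2, E2f6, Rnf2, Wdr5 and Rybp) and 2 in NIH3T3 cells (Ring1 and Yaf2), where 23.8% and 20.0% of all tested genes were, with a median log2 difference of 0.95 against 0.13 over all. E2f6, the DNA-binding repressor of the complex, was at 9.83 TPM in mESCs and 0.490 TPM in NIH3T3 cells. L3mbtl2, a subunit that binds histones, was at 56.7 and 8.79 TPM. Of the related proteins RYBP and YAF2, Rybp was at 95.7 TPM in mESCs with a log2 difference of 1.79, and Yaf2 was at 2.27 TPM with a log2 difference of -2.32. Likewise the E3 ligase Rnf2 was at 82.4 and 34.7 TPM and its relative Ring1 at 4.86 and 13.0 TPM. Ctr9 peaks lay at 8 of the 10 in mESCs and 5 in NIH3T3 cells, near the 74.7% and 46.2% of expressed genes, with the strongest of Rybp at 9.14-fold in mESCs and none at that gene in NIH3T3 cells.

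Of the 9 corepressor genes that serve MXD proteins, 2 were over 2-fold higher in mESCs, a share near the 23.8% of all tested genes, and none in NIH3T3 cells (20.0% of all), with a median log2 difference of 0.64. Sap30, a SIN3 subunit, was at 82.3 TPM in mESCs and 14.4 TPM in NIH3T3 cells, and Sin3a, the scaffold, at 28.8 and 11.8 TPM. Rbbp7, a histone chaperone, had the lowest log2 difference of the list, at 131 and 173 TPM. All 9 had a Ctr9 peak in mESCs (74.7% of expressed genes) and 7 in NIH3T3 cells (46.2%). Here and in the lists below, these shares cover all genes with a TPM of at least 1 and are not matched for level. The authors report that Ctr9 binding rises with mRNA level.

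Of the 9 coactivators and partners of MYC, 2 were over 2-fold higher in mESCs, again near the 23.8% of all, and none in NIH3T3 cells, against 20.0% (median log2 difference 0.12). They were Kat2a, a histone acetyltransferase, at 41.1 and 16.5 TPM, and Actl6a, a subunit of chromatin remodellers, at 98.1 and 44.4 TPM. By the sum over transcripts Kat2a fell under 2-fold. Trrap, the scaffold that MYC recruits, had the lowest log2 difference of the list, at 12.5 and 18.4 TPM. Ctr9 peaks lay at all 9 in mESCs and at 8 in NIH3T3 cells, Ruvbl2 being without one there, beside the same 74.7% and 46.2%.

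Of the 8 genes for MYC protein turnover, 3 were over 2-fold higher in mESCs and none in NIH3T3 cells, beside 23.8% and 20.0% of all tested genes (median log2 difference 0.49). With 8 genes no more can be read from these counts. Usp28, which removes ubiquitin from MYC, was at 64.4 TPM in mESCs and 6.69 TPM in NIH3T3 cells, a log2 difference of 3.09. Usp7, another ubiquitin protease, was at 116 and 32.4 TPM, and Fbxw7, the ubiquitin ligase subunit that marks MYC for destruction, at 8.97 and 3.74 TPM. Gsk3b, the kinase that prepares MYC for FBXW7, was at 10.4 and 18.2 TPM. Ctr9 peaks lay at all 8 in mESCs and at 5 in NIH3T3 cells, against 74.7% and 46.2% of expressed genes, and the 3 without one there were Usp28, Fbxw7 and Aurka.

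Of 16 known MYC target genes, 1 was over 2-fold higher in mESCs and 1 in NIH3T3 cells (23.8% and 20.0% of all tested genes), with a median log2 difference of 0.22 against 0.13 over all tested genes. Odc1, the first enzyme of polyamine synthesis, was at 264 and 131 TPM (log2 difference 1.01, under 2-fold when transcripts were summed or NIH3T3 levels rescaled). Ccnd2, a cell-cycle cyclin, was at 1.65 TPM in mESCs and 39.7 TPM in NIH3T3 cells. The nucleolar genes Npm1 and Ncl were the highest, Npm1 at 2138 and 1076 TPM and Ncl at 1260 and 1054 TPM. Ctr9 peaks lay at 15 of the 16 in each cell type, all but Ccnd2 in mESCs and all but Bop1, a factor of ribosome assembly, in NIH3T3 cells, beside 74.7% and 46.2% of expressed genes. The targets ran from 1.65 to 2138 TPM in mESCs and from 16.1 to 1076 TPM in NIH3T3 cells. Those shares are not matched for level, so whether MYC targets carry Ctr9 more often than genes of like level was not tested.

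The genes most like each MYC gene were sought over 9 values, the log2 of both levels and of the highest fold enrichment in the 7 lists, by Euclidean distance. Nearest to Myc were Pom121 (distance 0.959), Mvk (1.00) and Gm49384 (1.27), against a median distance of 7.45 to all protein-coding genes. Pom121 was at 18.8 TPM in mESCs and 25.2 TPM in NIH3T3 cells and, like Myc, had a NELFA peak and no H3K27ac peak in mESCs. Nearest to Mycn were Inpp5d (1.02), Sncg (1.16) and Cpne5 (1.23), against a median of 6.55. Inpp5d, a phosphatase gene of blood cells, was at 20.0 TPM in mESCs and 0.0248 TPM in NIH3T3 cells, with a Ctr9 peak in mESCs and none in NIH3T3 cells, H3K27ac in both, and an RNAPII Ser5p peak in mESCs, where alone that mark was read. Nearest to Mycl were Rragd (0.0952), Gm21833 (0.118) and Grhl1 (0.171), which had no peak in any list. Levels and peaks entered the distance, so likeness in them follows from how these genes were picked.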

How the data were processed

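The 3 inputs among the 12 samples were not used here. ChIP-seq reads were aligned by the authors to mm10 (bowtie2 2.3.5.1), cleared of blacklisted regions and turned into 1 peak list per library (macs2 2.2.6). The deposited lists give a score, the fold enrichment (a ratio at the summit) and −log10 p and q values. For each transcript of GENCODE M19 the authors deposited TPM and estimated counts from kallisto 0.46.1, the latter totalling 26400407 (mESCs) and 28849497 (NIH3T3).

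Coordinates came from GENCODE M21 (mm10) and promoters from RefSeq. Values were computed with pandas 2.3.3, SciPy 1.17.1 and NumPy 2.4.6 under Python 3.11.15 and plotted with Matplotlib 3.10.9, after the code was tested on simulated data. Genes were compared by the transcript of highest TPM with a pseudocount of 1. Exact 95% intervals compare summed estimated counts as shares of the library, rounded to whole numbers, and cover counting error only. The members and lists were chosen with earlier results of these data known. The text names the members, transcripts with at least 10% of a gene, the other MAX and MLX network genes, the highest and lowest of each list, the 3 genes nearest to each MYC gene and neighbours that share a peak. Other genes of the lists were named after their values were seen. Alternatives changed the level, pseudocount, scaling, windows, threshold, overlap rule and number of peaks.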

Additional observations from a re-analysis of the deposited data

How the results depend on the processing

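No paired analysis was possible because each cell type and assay had 1 library, and for the same reason no replicate could be left out. The count of genes over 2-fold higher in mESCs was 3 and became 2, without Mycl, with the sum over transcripts, at the limit of 1.5 times. It stayed at 3 under every other alternative tried. The count higher in NIH3T3 cells was 1 and became 2, with Myc added, with a pseudocount of 0.1 (2), with NIH3T3 TPM rescaled by the median ratio (2) and with transcripts of identical exons added (2), the last chosen after seeing the data. That rescaling lowered each log2 difference by at most 0.08 (Mycn to 3.43 and Mycl to 1.01). Of 40 transcript shares, 25 left their 95% interval when taken from estimated counts in place of TPM. Of the counts of genes with a peak, H3K27ac in mESCs went from 5 to 3 with the gene body only. With 20 kb on both sides, NELFA and RNAPII Ser5p in mESCs went from 1 to 2 each. RNAPII Ser2p went from 1 to 0 with 1 kb on both sides and with the gene body only, since its peak at Mga lies past the gene. Over both kinds of count, genes past 2-fold and genes with a peak, the other 43 of 51 comparisons stayed within 1.5 times. For the number of peaks at single genes, 33 comparisons moved past that limit and 102 did not. Ctr9 peaks of mESCs at Max went from 7 to 15 with 20 kb on both sides, and at Mga from 30 to 19 at a −log10 q of at least 5. Measured from the annotated gene start, 7 summit distances changed, at Myc, Mxi1 and Mxd4. No log2 difference of the 7 genes changed sign. Protein sequences were not used here, so the planned comparison of MYC proteins was not run. With 1 library per group and unknown ChIP-seq depth, a missing peak says only that none was called.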
